A study of Mus musculus with 8 samples.

Results

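Caspase genes were described in primary mouse astrocytes as a family of 6 of the 54146 genes measured, namely Casp1, Casp4, Casp12, Casp2, Casp9 and Casp6. They were taken by gene symbol, and each symbol matched 1 gene in every library. Glial cells from the cortices of C57BL/6 pups in their first days of life were infected with lentivirus carrying a short hairpin RNA (shRNA) against Gstm1 (GSTM1 KD) or a control shRNA (control KD), selected with puromycin and depleted of CD11b-positive cells. Control KD and GSTM1 KD astrocytes were left unstimulated (basal libraries) or received 50 ng/ml TNF-α over 6 h. All 8 libraries, 2 biological replicates in each of the 4 groups, therefore came from infected and selected cultures, and each knockdown was 1 shRNA label. Pups were pooled in flasks, and the labels do not say which flasks a replicate came from. With 2 libraries a group, no exact test can reach 0.05, so p-values come from models fitted across all genes and measure the spread between these libraries only.

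Caspases are cysteine proteases that cut their targets after aspartate and are made as inactive precursors. Inflammatory caspases are activated on inflammasomes or by bacterial lipopolysaccharide, then cut cytokine precursors and gasdermin D, whose pores cause a form of cell death called pyroptosis. Initiator caspases of apoptosis assemble on adaptor complexes, and executioner caspases then dismantle the cell. Because activity is set by cleavage, an mRNA level gives the amount of transcript and not the activity of the enzyme. In astrocytes several of these genes are known to be inducible by inflammatory signals, and the comparisons asked whether TNF-α, the loss of Gstm1 or both changed their transcripts.

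Casp1, Casp4 and Casp12, the inflammatory group, lie side by side on chromosome 9 of GRCm38, all on the plus strand, within 74516 bases. Casp1 (ENSMUSG00000025888.5) spans 5298517 to 5307265, Casp4 (ENSMUSG00000033538.13) spans 5308828 to 5336783 and Casp12 (ENSMUSG00000025887.10) spans 5345430 to 5373032, with gaps of 1562 and 8646 bases between them. Casp2 (ENSMUSG00000029863.13) lies on chromosome 6 from 42264985 to 42282508, Casp9 (ENSMUSG00000028914.13) on chromosome 4 from 141793612 to 141815976 and Casp6 (ENSMUSG00000027997.9) on chromosome 3 from 129901425 to 129914103. In the annotation, Casp9 overlaps Cela2a and Ctrc on the opposite strand and Casp2 holds a small nucleolar RNA gene, Gm25108, on its own strand. Use of the strand in counting is not given in the sources used here, so reads of these overlaps are uncertain. The other 4 members overlap no annotated gene.

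The sequences just before the starts of the 3 neighbours are shown because these genes adjoin each other and were the members that passed a test in at least 1 comparison. They were taken from RefSeq (GRCm38.p6), which held entries for all 6 members, and end at the last base before the annotated gene. Capitals mark matches to 3 motifs of inflammatory transcription factors, searched on both strands in the 250 bases before each RefSeq start. The motifs were the NF-κB consensus, the interferon-stimulated response element GAAANNGAAA and the gamma-activated sequence TTCNNNGAA, and no match of one motif overlapped a match of another.
Casp4, chr9:5308699-5308827, plus strand: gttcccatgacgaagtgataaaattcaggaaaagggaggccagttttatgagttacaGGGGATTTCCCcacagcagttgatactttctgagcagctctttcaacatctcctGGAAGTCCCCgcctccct
Casp1, chr9:5298367-5298516, plus strand: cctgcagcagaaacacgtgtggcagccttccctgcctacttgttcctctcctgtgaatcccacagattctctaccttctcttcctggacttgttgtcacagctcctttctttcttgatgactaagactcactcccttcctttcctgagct
Casp12, chr9:5345326-5345429, plus strand: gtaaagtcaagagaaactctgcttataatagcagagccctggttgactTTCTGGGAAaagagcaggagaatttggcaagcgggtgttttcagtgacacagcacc
Casp4 matched the NF-κB consensus at 2 places, from 93 to 83 bases before its first RefSeq start, where matches on both strands overlap, and from 39 to 30 bases before it on the minus strand. Casp12 matched the gamma-activated sequence from 102 to 94 bases before its start, as shown, and again from 36 to 28 bases before it, a stretch that lies in the annotated gene and is not printed. Casp1, Casp2, Casp9 and Casp6 held none of the 3 motifs in this window. Over 32841 windows of the same length, 7.25% held the NF-κB consensus, 2.98% the interferon-stimulated response element and 7.02% the gamma-activated sequence, so a match of this kind is a description of the letters and not of a bound factor.

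The libraries held 17349676 to 34434633 expected counts (estimated fragments per gene), and 3 counts, taken as the floor, equalled 0.0848 to 0.181 CPM (counts scaled by library size and TMM factor); this floor covers counting error only. All 6 members passed the filter on low counts in every comparison. Gstm1, the targeted gene, had 4851 to 9644 counts in control KD and 405 to 676 in GSTM1 KD libraries, with no overlap in either state. All 9 astrocyte markers were detected in every library, and Gfap was the most abundant of them. The summed level of the 9 markers was 1583 and 3787 TPM (transcript abundance per length, with an equal sum for each library) in control KD against 3650 and 5724 TPM in GSTM1 KD without stimulation, and 1581 and 3643 against 3496 and 5420 TPM with TNF-α. Of the 9, S100b alone passed the test, as lower in GSTM1 KD in both states. Microglial and macrophage markers were low: 11 genes summed to 10.2 to 19.4 TPM in control KD and 7.85 to 12.3 TPM in GSTM1 KD without stimulation, and to 11.7 to 19.6 and 7.28 to 13.1 TPM with TNF-α. Markers of other cell types also moved with the knockdown. Folr1 of the choroid plexus was higher in GSTM1 KD, 6.35-fold without stimulation and 6.86-fold with TNF-α (adjusted p = 0.0476 and 0.0330 from edgeR). Of the other ependymal and choroid plexus markers, Foxj1, the most abundant, did not pass in either state (log2 fold changes 0.01 and 0.30), and Ttr and Kl stood at 0 to 0.92 TPM. Olig2 of the oligodendrocyte lineage was 1.80-fold and 2.20-fold lower (adjusted p = 0.0251 and 0.0101) and Col1a2 of fibroblasts 2.18-fold and 1.98-fold lower (adjusted p = 0.0352 and 0.0250), while Pdgfrb of mural cells was 1.75-fold higher with TNF-α (adjusted p = 0.0337). Among the microglial and macrophage markers, Aif1 stood at 0 TPM in all 4 GSTM1 KD libraries and at 0 to 0.31 TPM in control KD. Without stimulation P2ry12 stood at 0 in both control KD libraries and at 0.04 and 0.47 TPM in GSTM1 KD. Of these 11 genes, 5 were tested by knockdown in each state, and 0 passed. With TNF-α, the log2 level of Pdgfrb fell by 1.28 in control KD (adjusted p = 0.0278) and that of Olig2 fell by 0.67 in GSTM1 KD (adjusted p = 0.0310). The part of these markers in the responses to TNF-α was not tested. In such bulk samples, fewer cells that express a gene and less RNA per cell cannot be told apart.

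Per transcript length, Casp12 and Casp6 were the most abundant members in the basal libraries, and Casp4 was the most variable member over all 8 libraries. Casp12 had the highest TPM of the 6 in 6 of 8 libraries, and Casp6 had it in control KD replicate 1 of both states. Casp4 was the lowest of the 6 in all 4 basal libraries, at 0.79 to 3.87 TPM, and with TNF-α it ranked next to the highest in 3 of 4 libraries, at 13.2 to 25.5 TPM, and below all but Casp2 in GSTM1 KD replicate 2, at 12.8 TPM. The highest library exceeded the lowest 32.3-fold for Casp4, 5.31-fold for Casp12, 3.26-fold for Casp1, 2.06-fold for Casp2 and 2.04-fold for Casp9. Casp6 ranged least, from 15.1 to 22.6 TPM. In control KD without stimulation Casp6 (15.7 and 22.6 TPM) and Casp12 (11.8 and 23.5 TPM) overlapped. The next neighbours, Casp2 (7.53 and 9.19 TPM), Casp9 (6.70 and 9.02 TPM) and Casp1 (6.56 and 7.57 TPM), overlapped too, while Casp4 (2.12 and 3.87 TPM) lay below all of them. In GSTM1 KD the order without stimulation was Casp12, Casp6, Casp9, Casp1, Casp2 and Casp4 in both libraries, with no overlap between any neighbours in that order. With TNF-α, Casp12 (11.3 and 28.9 TPM), Casp4 (13.2 and 22.5 TPM) and Casp6 (15.1 and 19.5 TPM) overlapped in control KD. In GSTM1 KD with TNF-α, Casp12 (56.0 and 60.1 TPM) lay above the rest, Casp4 (12.8 and 25.5 TPM), Casp1 (16.5 and 21.4 TPM) and Casp6 (16.0 and 17.9 TPM) overlapped, and Casp2 (8.38 and 8.65 TPM) was lowest.

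**Figure D1:**
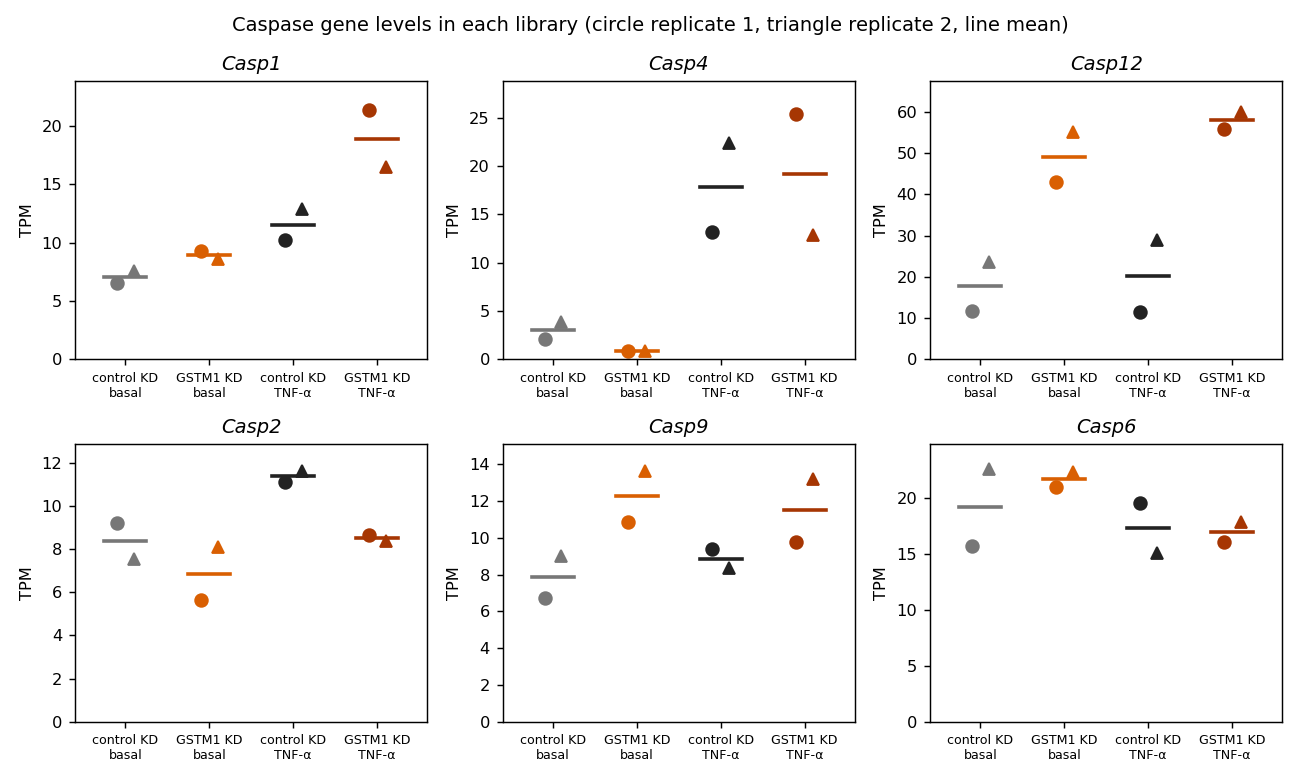
Level of each caspase gene in the 8 libraries in TPM, with 1 panel a gene, a circle for replicate 1, a triangle for replicate 2 and a line at the mean of each group. The axes differ between panels. Casp12 stood higher in both GSTM1 KD groups (43.0 to 60.1 TPM) than in any control KD library (11.3 to 28.9 TPM), and Casp4 stood higher in all 4 TNF-α libraries (12.8 to 25.5 TPM) than in the basal ones.

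Counted together, 0 of 6 members passed between GSTM1 KD and control KD without stimulation, where 10.2% of 14899 genes passed. With TNF-α 1 of 6 passed, Casp12, where 16.2% of 14593 genes did. Both counts are near the background share. With TNF-α, 1 of 6 passed in control KD (Casp4) where 2.63% of 15332 genes did, and 2 of 6 in GSTM1 KD (Casp1 and Casp4) where 2.65% did, all of them higher. For the difference between the responses, 0 of 6 passed. When a library was left out of a knockdown comparison, 1 library of its group remained, was assumed to vary like the other group and left that group alone to give the spread. Such fits called 0.00643% to 34.2% of all genes without stimulation and 0% to 32.9% with TNF-α, and calls of members gained or lost in them are to be read against these shares. The median log2 fold change over all genes tested lay between -0.02 and 0.02 in the 5 comparisons. Groups that did not overlap in CPM were common in these data, at 63.5% and 66.6% of all genes for the knockdown without stimulation and after stimulation and at 34.5% and 44.5% for TNF-α in control KD and GSTM1 KD. Against these shares the members' groups were apart for 6 and 5 of 6 genes by knockdown and for 4 and 5 of 6 by TNF-α.

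**Figure D2:**
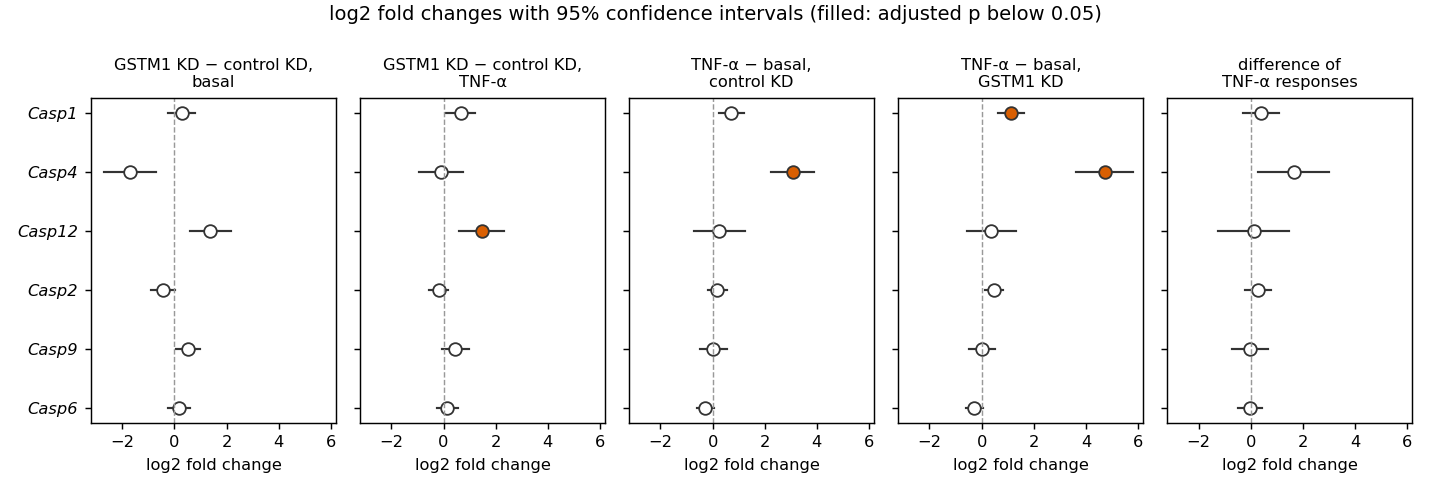
Log2 fold changes of the 6 members with 95% confidence intervals in the 5 comparisons, fitted by edgeR across all genes; filled points had an adjusted p below 0.05. Only 4 points were filled, for Casp12 by knockdown with TNF-α, for Casp4 by TNF-α in control KD, and for Casp1 and Casp4 by TNF-α in GSTM1 KD.

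Casp4, the mouse gene for caspase-11, which binds cytosolic lipopolysaccharide and cleaves gasdermin D, rose with TNF-α in both knockdown groups. It had 47 and 37 counts in control KD without stimulation and 200 and 245 counts with TNF-α. In GSTM1 KD it had 8 and 10 counts without stimulation and 295 and 149 counts after stimulation. All 4 TNF-α libraries lay above all 4 basal libraries, and the GSTM1 KD libraries were the lowest without stimulation. In CPM its level went from 1.39 ± 0.0833 to 11.7 ± 4.33 (SD, n = 2) in control KD, an 8.37-fold rise of 3.07 in log2 units (standard error, SE, 0.350, adjusted p = 0.00764 by the quasi-likelihood test of edgeR). In GSTM1 KD it went from 0.422 ± 0.111 to 11.1 ± 3.58 CPM, a 26.3-fold rise of 4.72 in log2 units (SE 0.461, adjusted p = 0.00243). These responses share no library, but their tests share 1 estimate of the spread from all 8 libraries. Each rise passed the test with any 1 of the 4 libraries of its own knockdown left out. Log2 fold changes were then 2.65 to 3.40 in control KD and 4.34 to 5.01 in GSTM1 KD. In such fits the lone library of a group is assumed to vary like the other groups. Over the other settings that tested Casp4, its log2 fold change ran from 2.23 to 3.34 in control KD. In GSTM1 KD it ran from 3.40 to 4.73. Fitted on the 4 control KD libraries alone, the rise of Casp4 in control KD fell short of the threshold (adjusted p = 0.0590 from edgeR). That fit called 0.486% of all genes, against 2.63% in the fit reported.

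The rises of Casp4 differed by 1.65 on the log2 scale between GSTM1 KD and control KD (SE 0.579, 95% interval 0.29 to 3.01, unadjusted p = 0.0216), which did not pass over all genes (adjusted p = 1.00 in edgeR). Across all 15332 genes this test of the difference called 0% of genes, with 295 at an unadjusted p under 0.05 and 27 called by DESeq2, Casp4 not among those 27. Without stimulation Casp4 was 3.28-fold lower in GSTM1 KD, by -1.72 in log2 units (SE 0.401, 95% interval -2.71 to -0.72) just short of the threshold (adjusted p = 0.0512). It passed in 5 of 10 other settings, for example when all 8 libraries were fitted (adjusted p = 0.0438), where 18% of all genes passed. With unstimulated control KD replicate 2 left out, its log2 fold change was -1.67 (adjusted p = 0.0412), in a fit that called 34.2% of all genes. With TNF-α the knockdown groups overlapped, at 200 and 245 against 295 and 149 counts, with a log2 fold change of -0.08 (95% interval -0.93 to 0.77, adjusted p = 0.883).

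The TPM of Casp4 also carries the length the authors assigned to it. Its 7 annotated transcripts gave effective lengths of 642 to 1179 bases over the 8 libraries, with the shortest in control KD replicate 2 without stimulation. With these lengths as offsets in edgeR the rise with TNF-α passed in both knockdown groups, and the basal difference kept its direction. Microglia and macrophages also express Casp4. Their 11 summed markers stood at 19.4 and 10.2 TPM in control KD without stimulation and at 19.6 and 11.7 TPM with TNF-α, and at 12.3 and 7.85 against 13.1 and 7.28 TPM in GSTM1 KD. Between 1 and 5 of the 11 were at or under the floor in both libraries of a group. Their part in the rise of Casp4 and in its basal difference by knockdown was not tested.

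Casp1, the protease that matures interleukin-1β and interleukin-18, rose with TNF-α in GSTM1 KD. In control KD its response did not pass the test, and neither did the difference between the responses. It had 173 and 142 counts in control KD against 153 and 121 in GSTM1 KD without stimulation. With TNF-α it had 176 and 161 counts in control KD against 339 and 206 in GSTM1 KD. Scaled to CPM, the control KD level was 5.22 ± 0.467 and the GSTM1 KD level 6.31 ± 0.358 without stimulation, and 8.63 ± 1.49 and 13.7 ± 2.70 after stimulation (SD, n = 2). In this scale the 4 groups did not overlap for any pair compared, and the GSTM1 KD libraries with TNF-α were the highest of the 8. Depending on the comparison, 34.5% to 66.6% of all genes showed no overlap. The rise in GSTM1 KD was 2.18-fold (log2 fold change 1.12, SE 0.206, adjusted p = 0.0385 from edgeR). That in control KD was 1.65-fold and did not pass (log2 fold change 0.72, SE 0.207, 95% interval 0.24 to 1.21, adjusted p = 0.164). The difference of 0.40 between the responses had a 95% interval of -0.29 to 1.09. The call in GSTM1 KD was lost when any 1 of the 4 GSTM1 KD libraries was left out. Log2 fold changes in those fits were 0.90 to 1.31. Each such fit left 1 library in a group and called fewer genes in all than the fit of all 8 libraries.

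Between the knockdown groups Casp1 was 1.57-fold higher in GSTM1 KD with TNF-α (log2 fold change 0.65, SE 0.226, 95% interval 0.09 to 1.22), which did not pass (adjusted p = 0.103). Without control KD replicate 2 the value was 0.84 (adjusted p = 0.0360), in a fit that called 32.9% of all genes. Without stimulation its log2 fold change was 0.28 (95% interval -0.25 to 0.80, adjusted p = 0.416).

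Casp12, an endoplasmic reticulum-associated member of the inflammatory group whose role in cell death is debated, differed by knockdown and not detectably by TNF-α. It had 428 and 604 counts in control KD against 961 and 1014 in GSTM1 KD without stimulation. With TNF-α it had 305 and 495 counts in control KD against 1306 and 1024 in GSTM1 KD. Every GSTM1 KD library was above every control KD library in both states, while replicate 1 and replicate 2 of control KD lay far apart. In CPM the groups stood at 17.9 ± 8.14 and 46.0 ± 6.75 without stimulation and at 21.5 ± 11.8 and 59.6 ± 1.05 after stimulation (SD, n = 2). With TNF-α Casp12 was 2.76-fold higher in GSTM1 KD, and this difference passed (log2 fold change 1.46, SE 0.350, adjusted p = 0.0473 from edgeR). Without stimulation it was 2.59-fold higher and just short of the threshold (log2 fold change 1.37, SE 0.315, 95% interval 0.59 to 2.15, adjusted p = 0.0535). DESeq2 called it in both states, with adjusted p = 0.000317 without stimulation, and called 16.9% and 19.9% of all genes there.

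Leaving out single libraries changed either the calls on Casp12 or the size of its difference. With TNF-α the call was lost without GSTM1 KD replicate 1 or 2 (adjusted p = 0.150 and 0.174), at log2 fold changes of 1.45 and 1.48. In those fits 0 and 94 genes in all passed. Without control KD replicate 1 the log2 fold change was 0.98 with TNF-α and 0.96 without stimulation, and without control KD replicate 2 it was 2.16 and 1.92, and each of these 4 values passed. Without control KD replicate 1 those fits called 18.3% and 14.3% of all genes, and without control KD replicate 2 they called 32.9% and 34.2%. With effective lengths as offsets, or with limma on log2 TPM, the call after stimulation was lost (adjusted p = 0.0582 to 0.0587), at log2 fold changes of 1.49 to 1.68. The responses of Casp12 to TNF-α were 0.26 in control KD (95% interval -0.71 to 1.23) and 0.37 in GSTM1 KD (95% interval -0.57 to 1.31) on the log2 scale.

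Markers of several cell types differed between the same libraries as Casp12. In TPM, Casp12 was at 11.8 and 23.5 in control KD against 43.0 and 55.2 in GSTM1 KD without stimulation, and at 11.3 and 28.9 against 56.0 and 60.1 after stimulation. The sum of the 9 astrocyte markers was lowest in control KD replicate 1 and highest in GSTM1 KD replicate 2 in both states, and Gfap made up much of it. Gfap, the astrocyte intermediate filament, was at 706.5 and 2206 in control KD against 2333 and 4184 in GSTM1 KD without stimulation, and at 651 and 2016 against 2143 and 3828 after stimulation. Without stimulation the log2 fold changes of Aldoc, Aldh1l1, Slc1a2 and Gja1 were 1.11, 1.05, 0.67 and 0.36, none of which passed. S100b had a log2 fold change of -1.44 (adjusted p = 0.0269 from edgeR), Sox9 of -0.50, Aqp4 of -0.08 and Slc1a3 of 0.01, against 1.10 for Gfap, which did not pass (adjusted p = 0.234). Summed markers of the oligodendrocyte lineage were at 105 and 133 TPM in control KD against 79.1 and 80.8 TPM in GSTM1 KD without stimulation, and at 93.4 and 108 against 62.1 and 69.5 TPM with TNF-α. Those of fibroblasts and mural cells, at 95.5 and 145 against 74.8 and 107 TPM and at 83.5 and 121 against 59.8 and 93.6 TPM, overlapped, and those of ependyma and choroid plexus were at 76.1 and 117 against 99.7 and 113 TPM and at 65.1 and 76.2 against 91.2 and 100.3 TPM. The part of these markers in the difference of Casp12 by knockdown was not tested.

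**Figure D3:**
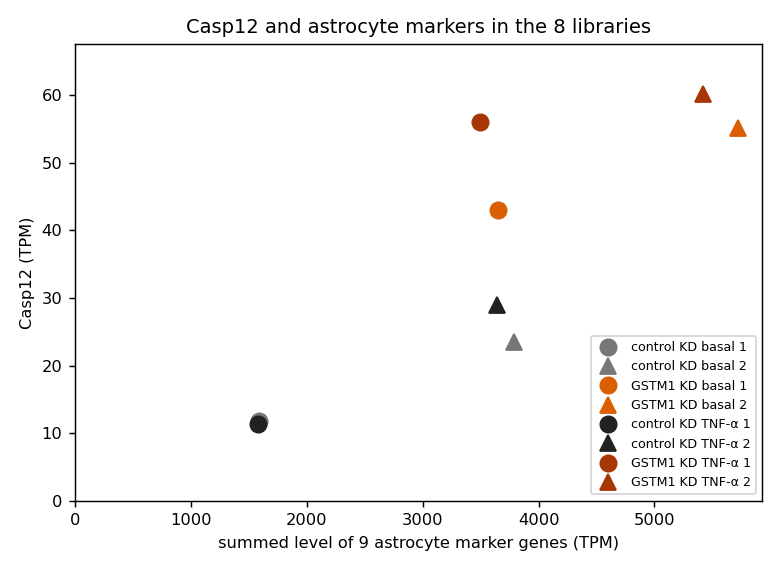
Casp12 against the summed level of 9 astrocyte marker genes, both in TPM, 1 point a library with colours for the 4 groups and shapes for the replicate number. The 4 control KD libraries lay at marker sums of 1581 to 3787 TPM and 11.3 to 28.9 TPM of Casp12, and the 4 GSTM1 KD libraries at 3496 to 5724 TPM and 43.0 to 60.1 TPM.

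Casp2, an initiator caspase activated on the PIDDosome after DNA or centrosome damage, passed no test. Its counts were 504 and 361 in control KD against 213 and 236 in GSTM1 KD without stimulation, and 358 and 281 against 313 and 253 with TNF-α. In CPM it stood at 14.2 ± 0.0958 and 10.5 ± 1.89 without stimulation and at 16.2 ± 1.05 and 14.5 ± 0.0577 after stimulation (SD, n = 2), lower in GSTM1 KD with no overlap in both states. No overlap in CPM by knockdown was found for 63.5% of all genes without stimulation and 66.6% with TNF-α. In TPM the basal groups of Casp2 overlapped (7.53 and 9.19 against 5.65 and 8.07). Its log2 fold changes by knockdown were -0.44 without stimulation (95% interval -0.91 to 0.03, adjusted p = 0.180 from edgeR) and -0.18 with TNF-α (95% interval -0.54 to 0.18, adjusted p = 0.411). Its responses to TNF-α were 0.19 in control KD, with adjusted p = 0.788, and 0.47 on knockdown of Gstm1 (95% interval 0.11 to 0.83, adjusted p = 0.258). In both knockdown groups its TNF-α libraries were above its basal libraries.

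Casp9, the initiator that the apoptosome activates once cytochrome c leaves the mitochondria, did not pass the test. In CPM and TPM it was higher in every GSTM1 KD library than in the control KD libraries of the same state. In CPM the knockdown groups did not overlap for 63.5% of all genes without stimulation and 66.6% with TNF-α. Casp9 had 461 and 449 counts in control KD against 501 and 439 in GSTM1 KD without stimulation, and 319 and 292 against 401 and 438 with TNF-α. Its CPM values were 15.3 ± 3.20 and 21.7 ± 0.344 without stimulation and 15.7 ± 2.71 and 21.8 ± 4.70 after stimulation (SD, n = 2). The log2 fold changes by knockdown were 0.51 (SE 0.185, 95% interval 0.05 to 0.97, adjusted p = 0.130 from edgeR) and 0.46 (SE 0.210, 95% interval -0.06 to 0.98, adjusted p = 0.179). With unstimulated control KD replicate 2 left out, the difference was 0.73 (adjusted p = 0.0103), in a fit that called 34.2% of all genes. With TNF-α its log2 fold change was 0.03 in control KD (95% interval -0.47 to 0.53) and 0.00 in GSTM1 KD (95% interval -0.49 to 0.50).

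Casp6, an executioner caspase that cleaves nuclear lamins, had the smallest range of the members over the 8 libraries and passed no test. It had 400 and 344 counts in control KD against 336 and 276 in GSTM1 KD without stimulation, and 239 and 169 against 246 and 205 with TNF-α. Its CPM values were 12.4 ± 1.51 and 14.1 ± 0.422 without stimulation and 10.2 ± 0.0895 and 11.6 ± 0.296 after stimulation (SD, n = 2). The values with TNF-α were below the basal ones in each knockdown group in CPM, but overlapped in TPM in control KD. The responses were -0.27 (95% interval -0.60 to 0.05, adjusted p = 0.520 from edgeR) and -0.29 (95% interval -0.61 to 0.04, adjusted p = 0.552) on the log2 scale. By knockdown it differed by 0.19 without stimulation (95% interval -0.23 to 0.61) and by 0.15 with TNF-α (95% interval -0.25 to 0.56).

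**Figure D4:**
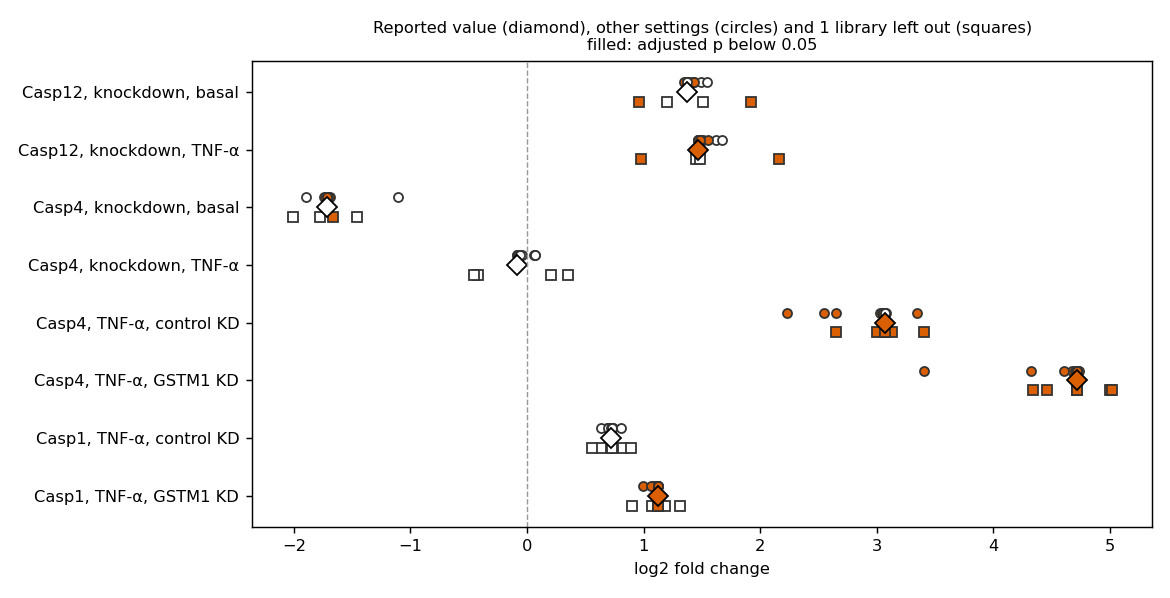
Log2 fold changes of Casp12, Casp4 and Casp1 as reported (diamonds), under other settings (circles) and with 1 library left out (squares), filled where the adjusted p was below 0.05. Casp4 was called in each left-out fit of both TNF-α responses, of which the 4 without a library of that knockdown bear on its fold change, whereas Casp12 with TNF-α lost its call in 2 of 4.

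Partners of Casp1 and Casp4 in inflammasomes and pyroptosis were mostly too low to test. Of the genes listed, 4 were tested without stimulation and 5 in the other comparisons. With TNF-α Il18, a cytokine that caspase-1 matures, was higher in GSTM1 KD, with 43 and 56 counts in control KD against 140 and 122 in GSTM1 KD (log2 fold change 1.36, SE 0.336, adjusted p = 0.0495 from edgeR). Nlrp3, the sensor of the best known inflammasome, was lower, with 38 and 17 counts against 5 and 3 (log2 fold change -2.71, SE 0.554, adjusted p = 0.0275). Both calls were lost without control KD replicate 1 and without either GSTM1 KD replicate of that state, and that on Il18 also with effective lengths as offsets (adjusted p = 0.0588). For Nlrp3, DESeq2 gave a log2 fold change of -2.74 and no adjusted p, limma gave -0.55 and -1.83 on log2 TPM with a pseudocount of 1 and 0.1 and did not call it, and the filter of at least 10 counts in every library removed it. No gene of this list passed without stimulation or in a response to TNF-α. Of all genes, 10.2% passed by knockdown without stimulation and 16.2% by knockdown with TNF-α. In the responses to TNF-α, 2.63% of all genes passed in control KD and 2.65% in GSTM1 KD. The list's medians by knockdown and in the responses ran from 0.16 to 0.36 on the log2 scale. Gsdmd, the pore-forming substrate, had 16 and 12 against 0 and 2 counts without stimulation and 27 and 29 against 12 and 10 with TNF-α. It did not pass (adjusted p = 0.0769 and 0.0740 from edgeR). With TNF-α the 11 microglial and macrophage markers summed to 19.6 and 11.7 TPM in control KD against 13.1 and 7.28 TPM in GSTM1 KD. Their part in the differences of Nlrp3, Il18 and Gsdmd by knockdown was not tested.

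Guanylate-binding proteins, GTPases that expose bacterial lipopolysaccharide to caspase-11, rose together with TNF-α. All 5 of the 5 genes tested passed as higher in both knockdown groups, as 2.1% (control KD) and 2.35% (GSTM1 KD) of all genes did, and their median was 2.53 (control KD) and 3.21 (GSTM1 KD) on the log2 scale against -0.02 and -0.01 over all genes. Gbp5 rose most, from 126 and 146 to 5623 and 9269 counts in control KD (log2 fold change 6.45, adjusted p = 0.00128 from edgeR) and from 80 and 60 to 8650 and 5684 counts in GSTM1 KD (6.81, adjusted p = 0.00111). Gbp2 rose by 3.76 and 4.02, Gbp7 by 2.53 and 3.21 and Gbp9 by 1.85 and 2.91 on the log2 scale in the same order. Between the knockdown groups 2 of 5 were higher in GSTM1 KD with TNF-α, where 7.26% of all genes were, Gbp3 (1.10, adjusted p = 0.0335) and Gbp9 (0.83, adjusted p = 0.0416), and 0 of 5 passed without stimulation, where 10.2% of all genes did; both calls were lost without either GSTM1 KD replicate of that state. With 1 library left out, Gbp5 kept its calls for TNF-α in every fit. Gbp3, which rose by 2.16 and 2.41, kept its calls in 3 of 8 such fits in control KD and in 5 of 8 in GSTM1 KD. In GSTM1 KD, Gbp7 lost its call without unstimulated replicate 1 (log2 fold change 3.09), and Gbp2 without either unstimulated replicate or TNF-α-treated replicate 1 (3.89 to 4.17). In control KD, Gbp9 lost its call without replicate 2 after stimulation. In the fit of the 4 control KD libraries Gbp2, Gbp3, Gbp7 and Gbp9 were not called (adjusted p = 0.138, 0.175, 0.0620 and 0.0917 from edgeR). Their log2 fold changes there were 3.76, 2.17, 2.54 and 1.86, and 72 genes passed in all. Gbp9 was also not called without both replicate 1 libraries of control KD, at a log2 fold change of 1.63.

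Among 9 genes of the apoptosome and of mitochondrial release, which act with Casp9, Bak1 was higher and Diablo lower in GSTM1 KD in both states, so that 2 of 9 passed where 10.2% and 16.2% of all genes did. Bak1, a pore-forming protein of the outer mitochondrial membrane, had log2 fold changes of 0.90 and 0.79 (adjusted p = 0.0261 and 0.0129 from edgeR). Diablo, which frees caspases from their inhibitors, had -0.997 and -0.90 (adjusted p = 0.0203 and 0.0164). Bid, which links death receptors to mitochondria, rose with TNF-α by 1.53 in control KD and 1.89 in GSTM1 KD (adjusted p = 0.0101 and 0.00425). Of all genes, 2.1% and 2.35% passed as higher in these 2 responses. In GSTM1 KD the call on Bid was lost when unstimulated GSTM1 KD replicate 1 or 2 was left out, at log2 fold changes of 1.99 and 1.80, in fits that called 83 and 74 genes in all against 406. Apaf1, the scaffold of the apoptosome, rose by 0.43 in GSTM1 KD (adjusted p = 0.0433), a call that was kept in 1 of 8 fits with a library left out and in 7 of 12 other settings. The list's medians were 0.07 and 0.12 by knockdown and 0.04 and 0.10 by TNF-α.

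Among 6 inhibitors of caspases, Birc3 and Birc2 rose with TNF-α in both knockdown groups. Of all genes, 2.1% passed as higher with TNF-α in control KD and 2.35% in GSTM1 KD. By knockdown, 10.2% of all genes passed without stimulation and 16.2% with TNF-α. Birc3, an inhibitor of apoptosis protein and a ubiquitin ligase of TNF receptor complexes, had 352 and 211 counts in control KD against 73 and 54 in GSTM1 KD without stimulation, and 1848 and 1235 against 912 and 622 counts after stimulation. It rose by 3.08 and 3.73 on the log2 scale (adjusted p = 0.000239 and 0.000255 from edgeR) and was lower in GSTM1 KD, with log2 fold changes of -1.64 without stimulation (adjusted p = 0.0224) and -1.01 with TNF-α (adjusted p = 0.0129). Birc2, its close relative, rose by 1.35 and 1.29 (adjusted p = 0.00497 and 0.00433), a call that in GSTM1 KD was lost when unstimulated GSTM1 KD replicate 1 or 2 was left out, at log2 fold changes of 1.203 and 1.38. The medians of the 6 inhibitors were 0.32 and 0.40 with TNF-α and -0.01 and 0.07 by knockdown.

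The remaining lists held few calls by knockdown, where 10.2% and 16.2% of all genes passed without stimulation and with TNF-α. Neither gene of the PIDDosome, which activates Casp2, passed in any comparison. Of 4 calpain genes, Cast, the calpain inhibitor calpastatin and itself a caspase substrate, was lower in GSTM1 KD without stimulation and after stimulation, with log2 fold changes of -0.77 and -0.61 (adjusted p = 0.0249 and 0.0273 from edgeR). Of 10 substrates of apoptotic caspases, Dffa, the inhibitor of the DNA-cutting nuclease, was higher in GSTM1 KD without stimulation (1.15, adjusted p = 0.0227) and Ptk2, the focal adhesion kinase, was lower with TNF-α (-0.43, adjusted p = 0.0464). No gene of any list passed for the difference between the responses. Bak1, Diablo, Birc3, Cast, Dffa and Ptk2 each lost their call by knockdown without either GSTM1 KD replicate of that state, in fits where 94 or fewer genes passed in all. With TNF-α, Cast, Ptk2 and Gbp9 were not called by knockdown in either limma fit, nor Gbp3 in the fit of all 8 libraries. Bid and Birc2 were not called for TNF-α in the fit of the 4 control KD libraries, at log2 fold changes of 1.54 and 1.36.

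**Figure D5:**
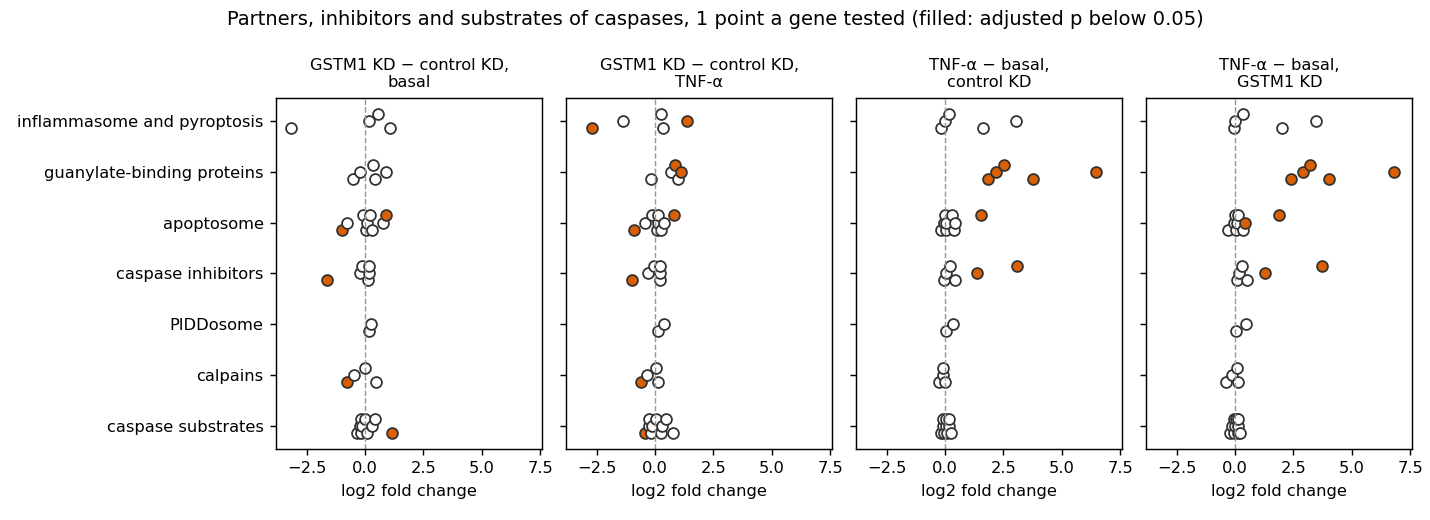
Log2 fold changes of the genes tested in 7 lists of caspase partners, inhibitors and substrates in 4 comparisons, 1 point a gene and filled where the adjusted p from edgeR was below 0.05. All 5 guanylate-binding protein genes were filled and right of 0 in both TNF-α panels, with Gbp5 at 6.45 and 6.81.

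As a description, the genes whose log2 CPM followed each member most closely over the 8 libraries were taken by Pearson correlation among 10984 genes with a mean of at least 5 TPM. These 8 points share libraries, groups and replicate differences, and near-perfect values arise easily over so many genes. Casp1 was closest to Irf2 (0.994), Rnf135 (0.992) and Adar (0.992), and Casp4 to Irf5 (0.996), Azi2 (0.994) and Tlr2 (0.991). Casp12 was closest to Anxa4 (0.991), Twsg1 (0.988) and Ganab (0.988). Casp9 went with Mrpl48 (0.982), Lpcat3 (0.981) and Rc3h2 (0.980), Casp6 with Srgap1 (0.980), Strn3 (0.978) and Notch2 (0.973), and Casp2 with Socs6 (0.9503), Bcl2l13 (0.946) and Btg1 (0.934). Among the members themselves, Casp12 and Casp9 correlated at 0.907 and Casp1 and Casp4 at 0.798, while Casp6 ran against Casp2 (-0.854) and Casp4 (-0.843). Casp12, the third gene of the chromosome 9 cluster, correlated at 0.613 with Casp1 and at 0.0756 with Casp4.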

How the data were processed

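RNA-seq data of 8 libraries, mapped to 4 groups from their labels, were analysed. The authors mapped 100-bp paired-end reads of directional libraries to GRCm38 with STAR (version 2.5.4b) and estimated abundances with RSEM (version 1.3.0). Expected counts, as the authors deposited them, estimate the fragments of each gene and are not normalized. The deposited TPM values were scaled by the authors for length and library total, and the deposited effective lengths, in bases, are averages over a gene's transcripts. No value column was left unmatched to a sample.

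Expected counts were rounded and scaled by TMM. Genes were filtered with filterByExpr and tested in edgeR (version 4.0.16, under R version 4.3.3) by its quasi-likelihood F-test, and p-values were adjusted by Benjamini-Hochberg over all genes tested, with a threshold of 0.05. Knockdown comparisons used the 4 libraries of a state, and responses to TNF-α and their difference used all 8. Library totals set the depth, and CPM intervals or floors cover counting error only. Alternatives used DESeq2 (version 1.42.0), limma (version 3.58.1) on log2 TPM, other scalings, filters and fits, a replicate block, length offsets and leaving out each library. Leaving out both replicate 1 libraries of control KD was chosen after seeing the data.

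The members, partner lists and markers were chosen with earlier results of these data known. Named were all members, list genes past the threshold (the 4 smallest p-values where more than 4 passed), and the 3 genes most correlated with each member. Gsdmd was named after its values were seen. Positions came from GENCODE, and figures were drawn with matplotlib (version 3.10.9) in Python (version 3.11.15).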

Additional observations from a re-analysis of the deposited data

How the results depend on the processing

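Over the 5 comparisons and all alternatives, 530 log2 fold changes of the members were recomputed. Of these, 37 had another sign than reported, in 9 results with reported values of -0.08 to 0.28, and none of those 9 was a result past the threshold. At the basal level, where 0 of 6 members passed, 1 passed with DESeq2 (Casp12), the newer quasi-likelihood method (Casp4), effective lengths as offsets (Casp12) or the fit of all 8 libraries (Casp4), and 2 passed (Casp4 and Casp12) with library size only or no filter on low counts. With the replicate number as a block, 3 passed (Casp4, Casp12 and Casp9, adjusted p = 0.0104, 1.65e-05 and 0.0271 in edgeR), while 4712 genes in all passed instead of 1524. DESeq2 called 16.9% of all genes there, the fit without a filter 16% and the fit of all 8 libraries 18%, against 10.2%. With each library left out, 0 to 3 passed; these fits called 0.00643% to 34.2% of all genes, and the 3 passed in the fit that called 34.2%. After TNF-α stimulation, where Casp12 passed, no filter gave 2 (Casp1 with adjusted p = 0.0211), effective lengths as offsets 0 and limma at both pseudocounts 0, and 0 to 2 passed with a library left out. For TNF-α in control KD, 0 passed instead of 1 in the fit of 4 libraries and with at least 10 counts in every library, a filter that removed Casp4. That filter left 1 of 2 in GSTM1 KD, and 1 to 2 passed there with a library left out. For the difference between the responses, no filter gave 1 (Casp4, log2 fold change 1.66, adjusted p = 0.0410). Without both replicate 1 libraries of control KD, 1, 2 and 0 members passed for TNF-α in control KD, TNF-α in GSTM1 KD and the difference. The pairing of replicate numbers is not explained by the labels. Deviations of replicate 1 from its group mean correlated at 0.220 to 0.687 between groups over 15332 genes, but each comparison holds only 2 pairs, so the block was not used for the values reported, and beyond the basal level it changed no member's call. The cause of these changes was not tested, except that the filters changed which genes were tested. Depth limits Casp4 at the basal level in GSTM1 KD most, at 8 and 10 counts.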
